A study of Mus musculus with 40 samples.

Results

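The 35 genes described here encode lysosomal hydrolases, their cofactors and lysosomal membrane proteins, together with *Tfeb*, a transcription factor of lysosomal genes. They were chosen by name as lysosomal genes other than the cathepsins and the subunits of the proton pump. All 35 were found among the 43346 genes of the count table, and all were among the 21253 genes with 10 or more counts in at least 4 of 40 libraries, on which every test was run. RNA came from the cortex of 40 mice in 4 groups of 10, each with 5 females and 5 males. WT mice carried mouse *Trem2* unaltered, and Hom mice were homozygous for *Trem2* H157Y, a knock-in made with CRISPR/Cas9 in which residue 157 of TREM2, a receptor of microglia, is changed. In the amyloid cohort WT and Hom mice carried the 5xFAD transgenes, which are driven by the *Thy1* promoter and hence expressed in neurons, and were 8.5 months old. In the non-amyloid cohort WT and Hom mice carried no 5xFAD transgene and were 6 months old, so the transgenes and age cannot be told apart in any comparison between the cohorts. The WT and Hom mice came from crosses of heterozygotes, and the knock-in descended from 1 edited founder unless the study names another.

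Lysosomes degrade glycosaminoglycans, gangliosides, glycogen, lipids and proteins in acid, and most of their hydrolases are needed by every cell, as the storage diseases caused by their loss show. In the brain, microglia that take up debris and amyloid are rich in lysosomes, and CD68, a glycosylated membrane protein of late endosomes and lysosomes, is used in tissue sections as a sign of phagocytic activity. Many lysosomal genes carry the CLEAR element, an E-box palindrome bound by TFEB and its relatives, near their start.

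Total counts per library ranged from 41646271 to 105903846 with a median of 77193387. The library of amyloid Hom replicate 19, a female, was the shallowest, and 0.660% of its counts fell on antisense genes against 0.0857% to 0.107% in the other 39. The library of amyloid Hom replicate 3, labelled female, held 3.04 CPM (counts scaled to the library size) of the Y-linked gene *Ddx3y*, 3.94% of the male median, whereas the other 19 females had at most 0.222 CPM. Both libraries were kept, and the tests between groups were repeated without each of them. The later relations to a microglial marker sum were not computed without either one alone. *Trem2* was measured at 10.7 ± 2.13 CPM in non-amyloid WT, 10.4 ± 1.59 in non-amyloid Hom, 62.2 ± 24.4 in amyloid WT and 33.9 ± 10.3 in amyloid Hom mice (mean ± SD, n = 10 each), and counts per gene cannot show whether a library carries the point mutation. *Thy1*, the gene whose promoter drives the transgenes, was at 627 ± 79.9 CPM in non-amyloid WT, 634 ± 71.6 in non-amyloid Hom, 1956 ± 370 in amyloid WT and 1575 ± 250 in amyloid Hom mice (mean ± SD, n = 10 each). Summed markers of neurons (9 genes, group means 10410 to 11000 CPM), astrocytes (8 genes, 4429 to 5769 CPM) and oligodendrocytes (8 genes, 4435 to 4890 CPM) were present in all groups.

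The E-box core of the CLEAR element, CACGTG, was searched for from 250 bases before to 50 bases after each start in the RefSeq promoter table of GRCm38.p6. It reads the same on both strands, so each match counts once. Of the 35 genes 31 had an entry, and 9 of these (29%) held the core, as against 8.09% of all 27025 genes in the table. The core occurred 14 times in those 9 genes, 4 times in *Lamp1*. The longer form TCACGTGA, which contains the core, occurred in *Mcoln1* and *Cln3* (6.45% of the members, 1.12% of all genes), and the longest form, TCACGTGA with a G before it and a C after it, occurred in *Cln3* alone of the members (3.23%, against 0.37% of all genes). A match of letters does not show that a factor binds there. The stretches below are shown because they hold the matched letters, 1 per gene, 5′ to 3′ on the strand of the gene, with the matched letters in capitals; the first 7 hold the core alone, *Mcoln1* holds the longer form and *Cln3* the longest.
Sgsh (chr11:119355522-119355551, minus strand): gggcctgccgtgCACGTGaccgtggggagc
Naglu (chr11:101070009-101070038, plus strand): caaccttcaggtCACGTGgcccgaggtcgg
Glb1 (chr9:114401018-114401047, plus strand): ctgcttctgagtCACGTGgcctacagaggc
Arsa (chr15:89477423-89477452, minus strand): tcaactcagtgtCACGTGttgtctgctcct
Gaa (chr11:119267811-119267840, plus strand): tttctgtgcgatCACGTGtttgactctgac
Lgmn (chr12:102439124-102439153, minus strand): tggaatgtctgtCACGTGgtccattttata
Lamp1 (chr8:13159088-13159117, plus strand): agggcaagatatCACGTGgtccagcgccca
Mcoln1 (chr8:3500462-3500491, plus strand): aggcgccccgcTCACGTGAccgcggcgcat
Cln3 (chr7:126583340-126583369, minus strand): cacgggtactGTCACGTGACccccaacctg
The matches shown lay from 16 bases (*Arsa*) to 140 bases (*Gaa*) before the RefSeq start, and all 14 from 15 bases (*Lamp1*) to 149 bases (*Cln3*). The stretches of *Sgsh*, *Naglu*, *Arsa*, *Mcoln1* and *Cln3* overlapped an exon of the same gene in the GENCODE vM21 annotation, which places some starts elsewhere, and those of *Glb1*, *Gaa*, *Lgmn* and *Lamp1* did not. The matches of *Lgmn* and *Cln3* came from a RefSeq start inside the gene as placed in the count table (chr12:102394084-102439813 and chr7:126571207-126585817). The windows of their upstream starts held 0 matches. The expression values of genes with and without the core are compared further on.

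The members differed widely in level. On a scale of CPM per kilobase of transcript, which allows genes to be compared, *Psap*, the precursor of the saposins that hydrolases need to reach sphingolipids, stood at 563.4 as a mean over the 4 groups, followed by *Lamp1* at 148 and *Ids*, the iduronate sulfatase, at 131.8. *Tfeb* was lowest at 0.431, below *Sgsh*, the sulfamidase of heparan sulfate, at 1.24 and *Cln3*, a lysosomal membrane protein, at 2.14. Summed over the 35 genes, the level was 4141 ± 110 CPM in non-amyloid WT, 4245 ± 108 in non-amyloid Hom, 4859 ± 312 in amyloid WT and 4485 ± 195 in amyloid Hom mice (mean ± SD, n = 10 each). All 35 genes had 10 or more counts in all 40 libraries. In the exons of GENCODE vM21, 13 of the 35 shared bases with another gene, over 10% of them in *Arsb* (39.9%), *Sgsh* (21.6%), *Arsa* (18.8%) and *Hexa* (12.8%), each with a gene of the opposite strand. The strand setting of the counting is not given in the sources used here, so reads of these pairs may have been mixed, although the overlapping partner of *Hexa*, *Tmem202*, was at 1.95 CPM.

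**Figure D1:**
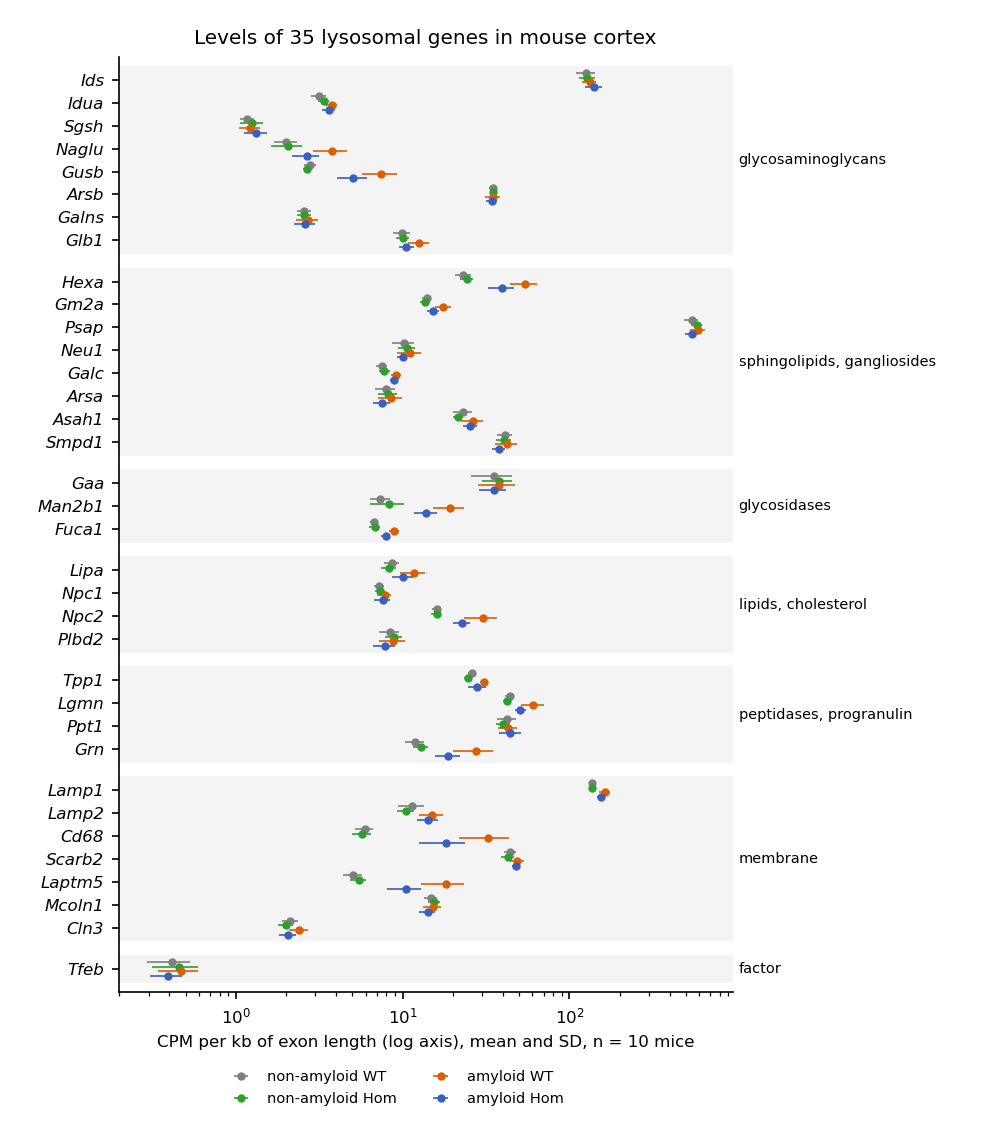
Mean level of each of the 35 genes in the 4 groups, in CPM per kilobase on a log axis, ordered by role. *Psap* lies highest and *Tfeb* lowest, and in *Cd68*, *Laptm5*, *Gusb*, *Man2b1*, *Hexa*, *Grn* and *Npc2* the amyloid groups stand above the non-amyloid groups.

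In WT mice, 16 of the 35 genes were higher in the amyloid than in the non-amyloid cohort and 0 were lower, also at an unadjusted p under 0.05 (edgeR's quasi-likelihood test in one fit of 40 libraries, Benjamini-Hochberg adjusted p under 0.05 and absolute log2 fold change over 0.25). Among all genes tested, 6.62% were called higher and 1.33% lower. By adjusted p alone, without the threshold on fold change, 18 members were higher (7.27% of all genes), and 21 were higher at an unadjusted p under 0.05 (13.2%). The estimate was above 0 for all 35 members, against 50.6% of all genes, although those of *Arsb* and *Ppt1* were just below 0 with DESeq2, without a filter and with edgeR's own filter. Its median was 0.24 on the log2 scale against 0.00234 for all genes. Complete separation, with every amyloid WT mouse above every non-amyloid WT mouse, was seen in 11 members, against 1.95% of all genes tested. The microglial marker sum moved with these values. It was 361.1 to 517.5 CPM in non-amyloid WT and 705.9 to 1535 CPM in amyloid WT mice over 16 of 16 markers, all called higher and none at 0. Astrocyte markers were also higher, at 4512 ± 512 CPM in non-amyloid WT and 5769 ± 485 CPM in amyloid WT mice (mean ± SD, n = 10 each), with *Gfap* and *Aqp4* called of 8 and none at 0. In bulk cortex more cells of a type and more RNA per cell cannot be told apart, and the part of the microglial and astrocyte markers in the lysosomal values was not tested.

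**Figure D2:**
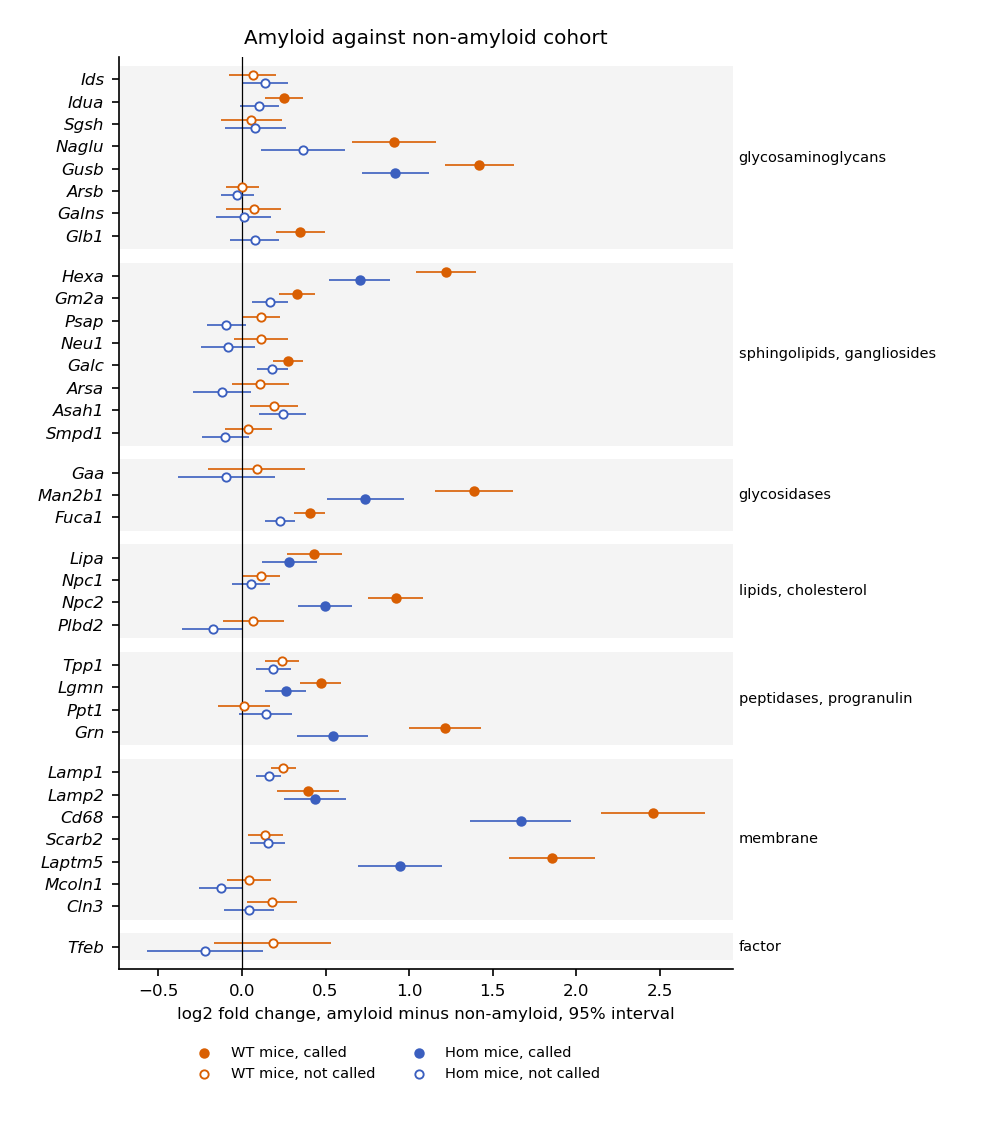
Log2 fold change of amyloid against non-amyloid mice for each of the 35 genes, WT and Hom mice apart, with 95% intervals; filled points passed the test. All 35 WT estimates lie above 0 in this fit, with *Arsb* and *Ppt1* at 0 within their intervals, 16 of them pass the test, and 10 Hom estimates pass.

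Among the membrane proteins, *Cd68* (chr11:69664213-69666153, minus strand, mm10 as in the count table) had the largest fold change of the set. Its level was 6.004, 7.67 and 8.71 CPM (lowest, median and highest mouse) in non-amyloid WT and 22.6, 38.2 and 68.6 CPM in amyloid WT mice. The 2 groups did not overlap, and the log2 fold change was 2.46 ± 0.16 (SE; adjusted p = 1.575e-15, edgeR quasi-likelihood test with Benjamini-Hochberg adjustment). *Laptm5* (chr4:130913125-130936141, plus strand), a lysosomal transmembrane protein of hematopoietic cells, was at 14.5, 19.2 and 23.98 CPM in non-amyloid WT and 41.7, 65.3 and 103.6 CPM in amyloid WT mice. Again no amyloid mouse fell within the non-amyloid range, and the log2 fold change was 1.86 ± 0.13 (SE; adjusted p = 1.991e-14 by the same edgeR test). The LAMP proteins, the main glycoproteins of the lysosomal membrane, had smaller fold changes. *Lamp2* rose by 0.39 ± 0.09 on the log2 scale (edgeR adjusted p = 0.00298), from 83.3, 108.1 and 151.1 CPM to 115.1, 144.7 and 187.9 CPM with overlapping groups. *Lamp1* was at 302.4, 310.1 and 319.1 CPM in non-amyloid and 328.8, 370.3 and 415.8 CPM in amyloid WT mice. Although its groups were separate and the edgeR adjusted p was 3.772e-06, its fold change of 0.2483 lay just under the threshold, so that *Lamp1* does not count among the 16. *Scarb2*, the receptor that carries glucocerebrosidase to the lysosome, and the channel gene *Mcoln1* and *Cln3* were not called, at 0.14, 0.04 and 0.18 on the log2 scale.

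Of the 8 enzymes of glycosaminoglycan breakdown, 4 rose. *Gusb* (chr5:129989011-130003049, minus strand), which encodes β-glucuronidase, was at 11.2, 12.4 and 14.7 CPM in non-amyloid WT and 23.1, 34.7 and 47.5 CPM in amyloid WT mice. Its groups did not overlap, and it rose by 1.42 ± 0.10 (SE; edgeR adjusted p = 5.607e-14). *Naglu* (chr11:101070012-101077672, plus strand), the N-acetylglucosaminidase of heparan sulfate, was at 3.97, 5.34 and 6.58 CPM in non-amyloid WT and 6.63, 10.3 and 14.1 CPM in amyloid WT mice. The ranges just failed to meet, and it rose by 0.91 ± 0.13 (SE; edgeR adjusted p = 6.571e-07). *Glb1*, the lysosomal β-galactosidase, rose by 0.35 ± 0.07 from a median of 24.2 to 30.6 CPM, and *Idua*, the iduronidase, rose by 0.25 ± 0.06 from a median of 13.2 to 16.04 CPM, both with overlapping groups. The call of *Idua* sat at the threshold, with a fold change of 0.2512, and was lost with DESeq2, with limma-voom, with other filters, and on leaving out any of 11 of the 20 WT libraries. *Arsb*, an arylsulfatase, had the lowest estimate of the 35, at 0.0028 on the log2 scale. *Ids*, *Sgsh* and *Galns*, the sulfatase of keratan sulfate, were at 0.06, 0.06 and 0.07 on the log2 scale and were not called.

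Sphingolipid and ganglioside genes gave 3 calls of 8. *Hexa* (chr9:59539667-59565105, plus strand), the α-subunit of β-hexosaminidase, was at 38.8, 41.6 and 54.9 CPM in non-amyloid WT and 77.8, 97.8 and 131.4 CPM in amyloid WT mice. The groups were separate, and *Hexa* rose by 1.22 ± 0.09 (SE; edgeR adjusted p = 1.516e-13). *Gm2a*, the activator protein that presents GM2 ganglioside to that enzyme, rose by 0.33 ± 0.06, and its lowest amyloid mouse at 61.0 CPM lay under the highest non-amyloid mouse at 61.5 CPM. *Galc*, the galactocerebrosidase of myelin lipids, rose by 0.28 ± 0.05, from a median of 28.8 to 34.6 CPM. *Psap*, the most abundant member, was at 1198, 1493 and 1686 CPM in non-amyloid WT and 1300, 1619 and 1861 CPM in amyloid WT mice, overlapping ranges with an estimate of 0.11 ± 0.06 that was not called. Neither *Smpd1*, the acid sphingomyelinase (0.04 on the log2 scale), nor *Neu1*, the sialidase (0.12), *Arsa*, the arylsulfatase of sulfatide (0.11), or *Asah1*, the acid ceramidase (0.19), was called.

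Among the remaining enzymes, *Man2b1* (chr8:85083269-85098739, plus strand), the lysosomal α-mannosidase, rose by 1.39 ± 0.12 (SE; edgeR adjusted p = 4.038e-12). Its range was 25.5, 33.5 and 37.7 CPM in non-amyloid WT and 63.4, 77.8 and 113.4 CPM in amyloid WT mice, with no overlap. *Fuca1*, the α-fucosidase, rose by 0.40 ± 0.05 (edgeR adjusted p = 7.012e-09), a smaller change that nevertheless separated the groups, since the mice of each group varied little (20.96 to 23.7 CPM against 26.4 to 33 CPM). *Gaa*, the acid α-glucosidase of glycogen, varied more between mice of a group than between groups, with 96.6 to 240.8 CPM in non-amyloid and 98.3 to 246.6 CPM in amyloid WT mice. Of the genes of lipid handling, *Npc2* (chr12:84754560-84773112, minus strand), the soluble cholesterol carrier, rose by 0.92 ± 0.08 (SE; edgeR adjusted p = 1.667e-11). It was at 47.4, 52.3 and 56.9 CPM in non-amyloid and 69.5, 94.9 and 136.0 CPM in amyloid WT mice, again without overlap. Its membrane partner *Npc1* was not called, with an estimate of 0.11 ± 0.06. *Lipa*, the acid lipase of cholesterol esters, rose by 0.43 ± 0.08 from a median of 24.98 to 32.2 CPM, and *Plbd2*, a phospholipase B-like protein, was not called at 0.07 on the log2 scale.

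*Grn* (chr11:102430315-102437048, plus strand), the gene of progranulin, a secreted and lysosomal glycoprotein, rose by 1.22 ± 0.11 (SE; edgeR adjusted p = 1.81e-11). Non-amyloid WT mice had 32.4, 41.6 and 52.8 CPM and amyloid WT mice 68.6, 87.2 and 139.4 CPM, with no overlap. *Lgmn*, the asparaginyl endopeptidase, rose by 0.47 ± 0.06 (edgeR adjusted p = 1.739e-07). Its ranges of 94.0 to 115.8 and 115.2 to 180.4 CPM overlapped by 1 mouse of the non-amyloid group. Of the 10 amyloid WT mice, 8 lay above every non-amyloid WT mouse. *Tpp1*, a tripeptidyl peptidase, had separate groups and an edgeR adjusted p of 0.00117, but its fold change of 0.24 was under the threshold. *Ppt1*, the palmitoyl-protein thioesterase, was at 0.01 on the log2 scale, and *Tfeb* at 0.18 ± 0.18 with 1.26 to 3.40 CPM in non-amyloid and 1.67 to 3.92 CPM in amyloid WT mice; neither was called.

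**Figure D3:**
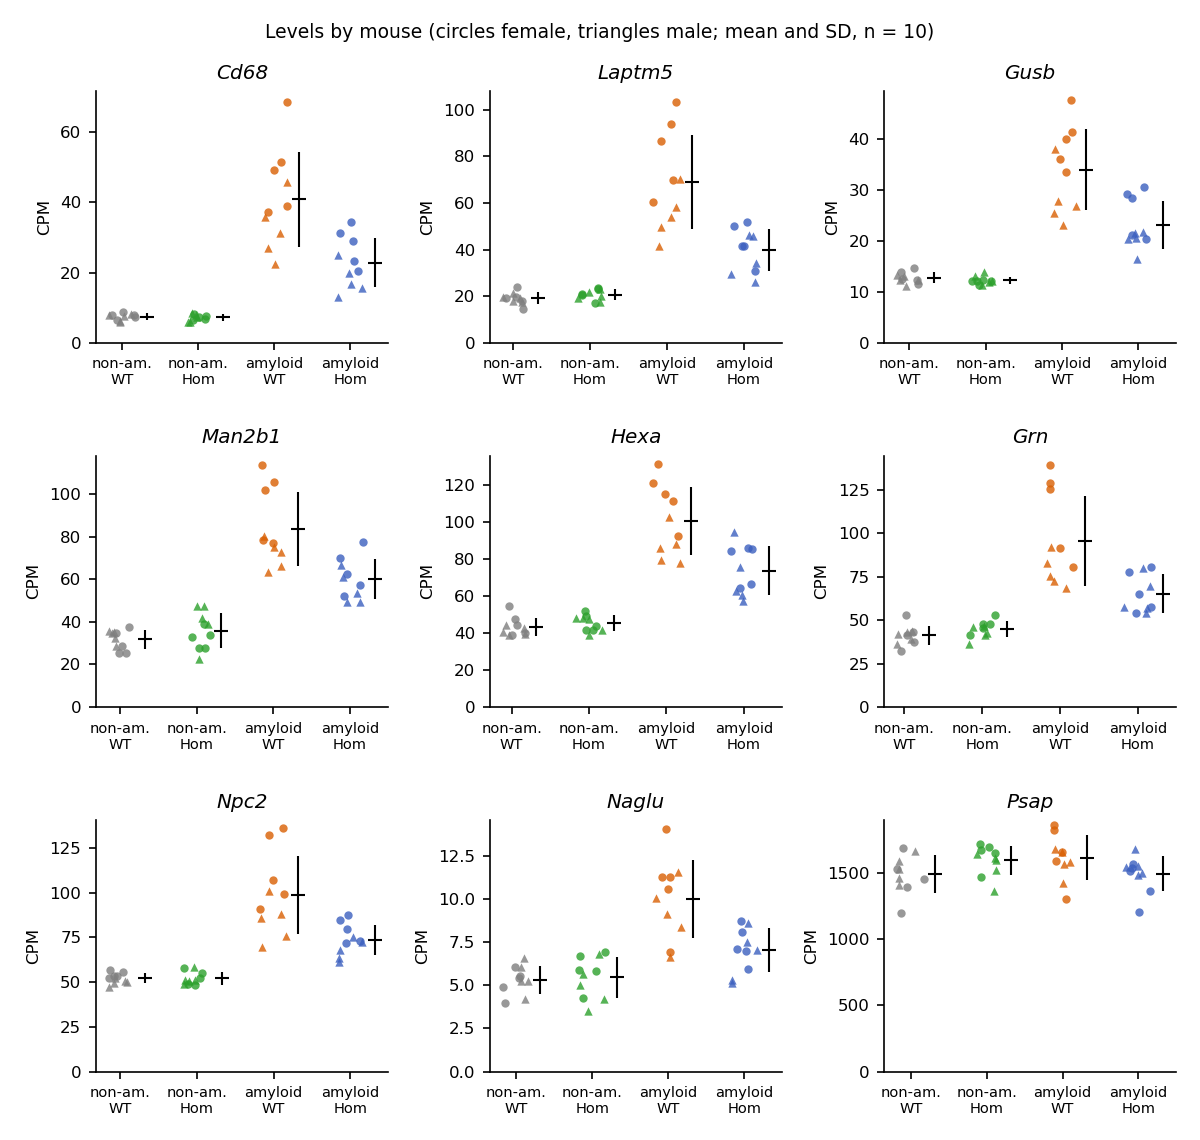
Level in each mouse, in CPM, of 9 members in the 4 groups; circles are females, triangles males, and bars show the mean and SD. In the 8 members other than *Psap*, all 10 amyloid WT mice lie above all 10 non-amyloid WT mice, and amyloid Hom mice overlap the amyloid WT mice.

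In Hom mice, 10 of the 35 genes were higher in the amyloid than in the non-amyloid cohort and 0 were lower, against 5.71% and 0.856% of all genes (edgeR). By adjusted p alone 15 were higher (6.13% of all genes), and at an unadjusted p under 0.05 0 were lower by edgeR (7.90%) and 1 by DESeq2 and by limma-voom. The median over the members was 0.153 on the log2 scale, against 0.0274 over all genes, and 26 of 35 estimates lay above 0, against 56.0% of all genes. Separation was complete in 7 members, *Cd68*, *Grn*, *Gusb*, *Hexa*, *Laptm5*, *Man2b1* and *Npc2*, against 0.875% of all genes. *Cd68* was again first, with 5.90, 7.29 and 8.56 CPM in non-amyloid Hom and 12.9, 21.9 and 34.3 CPM in amyloid Hom mice. The groups did not overlap and the log2 fold change was 1.67 ± 0.16 (SE; edgeR adjusted p = 1.557e-10). *Laptm5*, *Gusb*, *Man2b1*, *Hexa*, *Grn* and *Npc2* rose by 0.95, 0.92, 0.74, 0.70, 0.54 and 0.50 on the log2 scale, with edgeR adjusted p from 2.001e-08 (*Gusb*) to 0.000722 (*Grn*). *Lamp2* (0.44), *Lipa* (0.28) and *Lgmn* (0.26) made up the 10. The call of *Lgmn*, near the threshold on fold change, was lost with DESeq2, without a filter and with edgeR's own filter, and on leaving out any of 3 libraries; that of *Lipa* was lost on leaving out any of 5. The microglial marker sum was 393.1 to 470.5 CPM in non-amyloid and 548.0 to 935.5 CPM in amyloid Hom mice, with 14 of 16 markers called higher. Astrocyte markers were at 4429 ± 282 CPM in non-amyloid and 5457 ± 532 CPM in amyloid Hom mice (mean ± SD, n = 10 each), with *Gfap* and *Aqp4* called of 8. The part of either list in these values was not tested.

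The 10 genes called in Hom mice were all among the 16 called in WT mice, that is 100% of the one list and 62.5% of the other, and the 2 comparisons share no mouse. *Fuca1*, *Galc*, *Glb1*, *Gm2a*, *Idua* and *Naglu* were called in WT mice and not in Hom mice. Whether the rise differed between the genotypes is the question of the interaction, given below, and not of these calls. The count in Hom mice was 10 without amyloid Hom replicate 19, 9 without amyloid Hom replicate 3, and 9 to 11 on leaving out each library in turn.

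Within the amyloid cohort, no member passed the test between Hom and WT mice, while 32 of the 35 estimates lay below 0. By edgeR's quasi-likelihood test over the 20 amyloid libraries, 0 of 35 members were called, against 0.0753% of all genes (16 of 21253). At an unadjusted p under 0.05, 15 members were lower and 0 higher, against 5.77% and 3.90% of all genes. Among all genes 49.6% of estimates were below 0. The median of the members was -0.155 on the log2 scale against 0.00142 over all genes. The 15 came from every role except the transcription factor. They were *Gusb*, *Naglu* and *Glb1* of 8 glycosaminoglycan enzymes, *Hexa* and *Gm2a* of 8 sphingolipid genes, *Man2b1* and *Fuca1* of 3 glycosidases, *Npc2* and *Lipa* of 4 lipid genes, *Grn*, *Lgmn* and *Tpp1* of 4 peptidases and related genes, and *Laptm5*, *Cd68* and *Cln3* of 7 membrane proteins.

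The count depended on the model. DESeq2 called 8 members (1.38% of all genes), limma-voom 0 (0.118%), edgeR with sex as a covariate 7 (1.18%), and edgeR with all 40 libraries in one fit 10 (2.88%). Upper-quartile normalization, library size alone and edgeR's own filter each called 1, which was *Laptm5* (0.104%, 0.0941% and 0.0998% of all genes). The count also turned on single libraries. It was 7 without amyloid WT replicate 13 (0.960% of all genes), 4 without amyloid WT replicate 22 (0.447%), 3 without amyloid WT replicate 9 (0.282%) or amyloid Hom replicate 3 (0.306%), and 1 without amyloid Hom replicate 34 (0.141%). It was 0 without any of the other 15, among them amyloid Hom replicate 19 (0.0659%).

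*Laptm5* had the lowest p. Its level was 41.7, 65.3 and 103.6 CPM in amyloid WT and 26.1, 41.4 and 52.0 CPM in amyloid Hom mice. The groups overlapped: 6 of the 10 Hom mice lay under the lowest WT mouse, and 8 of the 10 WT mice lay over the highest Hom mouse. The estimate was -0.79 ± 0.16 on the log2 scale (SE; adjusted p = 0.0525, edgeR quasi-likelihood test with Benjamini-Hochberg adjustment), a level of 0.577 times that of WT. *Cd68*, at 22.6, 38.2 and 68.6 CPM in amyloid WT and 12.9, 21.9 and 34.3 CPM in amyloid Hom mice, had the estimate furthest from 0, -0.84 ± 0.19 (edgeR adjusted p = 0.0633). Here 5 Hom mice lay under the lowest WT mouse and 7 WT mice over the highest Hom mouse.

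The groups also overlapped in 5 further members. *Gusb* was at 16.5, 21.3 and 30.6 CPM in amyloid Hom mice, 7 of 10 under the lowest WT mouse, with an estimate of -0.56 ± 0.13 (edgeR adjusted p = 0.0747). *Man2b1* was at 49.2, 59.0 and 77.5 CPM, also with 7 of 10 under it, at -0.48 ± 0.11 (0.0633 by the same adjusted p). *Grn* was at 53.9, 61.5 and 81.0 CPM, with 6 of 10 below, at -0.55 ± 0.13 (adjusted p = 0.0747 by edgeR). *Hexa* was at 57.2, 71.1 and 94.97 CPM, with 6 of 10 below, at -0.45 ± 0.11 (adjusted p = 0.0787 by edgeR), and *Npc2* was at 61.0, 72.6 and 87.5 CPM, with 3 of 10 below, at -0.42 ± 0.11 (adjusted p = 0.0798 by edgeR). No member separated the groups of 10, as compared with 0.00941% of all genes that did.

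At the other end stood *Sgsh* with 0.13 ± 0.10, *Ids* with 0.09 ± 0.07 and *Ppt1* with 0.05 ± 0.08 on the log2 scale, the only estimates above 0. *Sgsh* was at 3.80, 5.57 and 6.24 CPM in amyloid WT and 4.44, 6.10 and 6.92 CPM in amyloid Hom mice, and *Ids* was at 585.8, 665.7 and 769.7 CPM in amyloid WT and 623.3, 709.6 and 879.7 CPM in amyloid Hom mice. Both ranges overlapped. *Tfeb* had an estimate of -0.27 ± 0.16 that was not called. It lies 609 kb from the start of *Trem2* on chromosome 17.

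**Figure D4:**
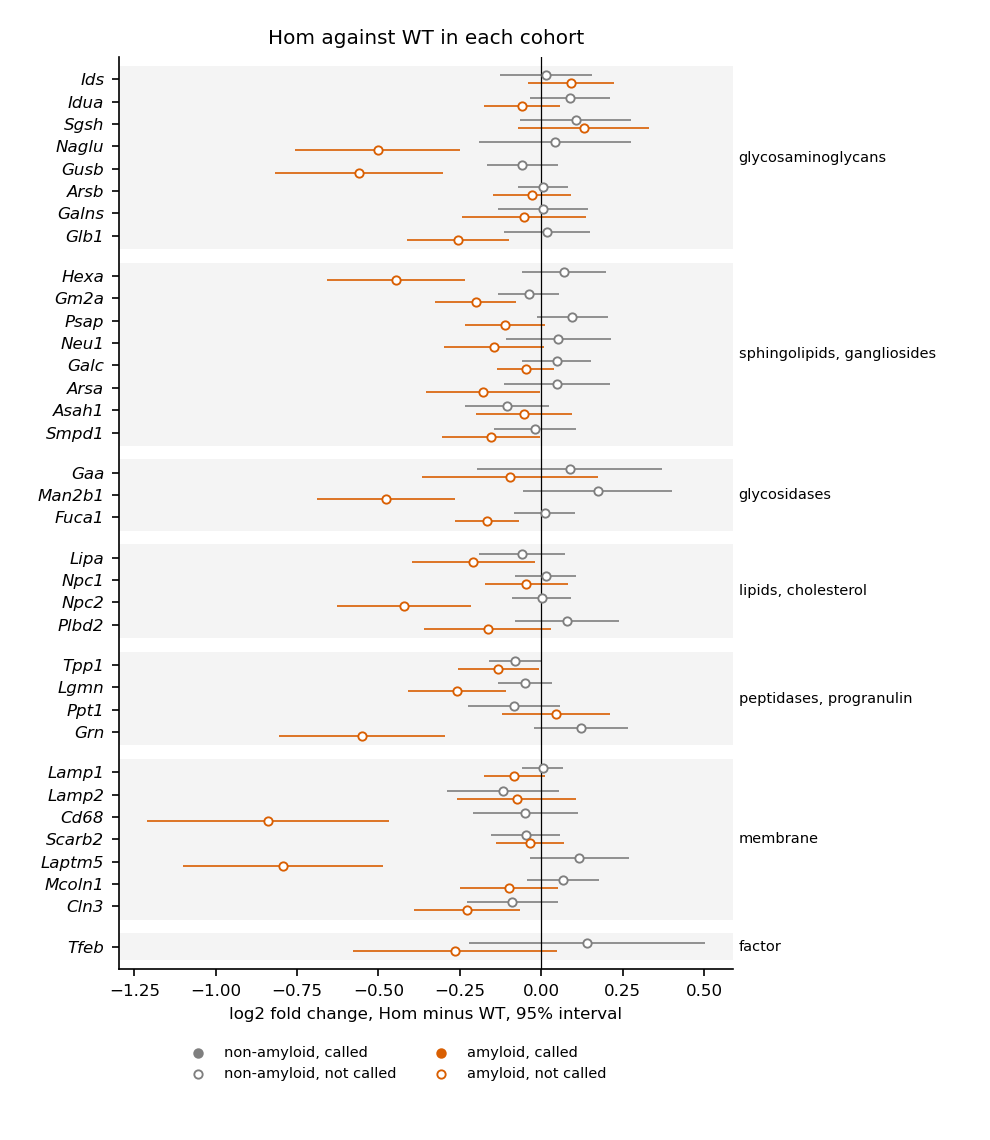
Log2 fold change of Hom against WT mice for each of the 35 genes in the amyloid and in the non-amyloid cohort, with 95% intervals. No member passes the test in either cohort; 32 of 35 amyloid estimates lie below 0 and the non-amyloid estimates lie between -0.118 and 0.173.

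The amyloid WT mice serve as controls in this comparison and as the raised group in the comparison of cohorts, so the 2 sets of values are not independent and are set side by side only. The members with the largest WT cohort changes, *Cd68*, *Laptm5*, *Gusb*, *Man2b1*, *Hexa* and *Grn*, at 2.46, 1.86, 1.42, 1.39, 1.22 and 1.22, had genotype estimates of -0.84, -0.79, -0.56, -0.48, -0.45 and -0.55. *Psap*, *Arsb* and *Ppt1*, at 0.11, 0.0028 and 0.01 between cohorts, had genotype estimates of -0.11, -0.03 and 0.05. The microglial markers moved alongside. Their sum was 1072 ± 282 CPM in amyloid WT and 713 ± 135 CPM in amyloid Hom mice, ranges of 705.9 to 1535 and 548.0 to 935.5, with 0 of 16 called by edgeR. *Thy1* had a Hom against WT estimate of -0.31 ± 0.11 in the amyloid cohort (unadjusted p = 0.00697, adjusted p = 0.224, edgeR). That of *App*, the mouse gene of the amyloid precursor protein, was -0.04 ± 0.05 (unadjusted p = 0.382, adjusted p = 0.752, edgeR). *App* was at 1693 ± 141 CPM in amyloid WT and 1643 ± 71.3 CPM in amyloid Hom mice (mean ± SD, n = 10 each). The part of the microglial markers and of *Thy1* in the lysosomal values was not tested. Markers of perivascular macrophages (6 genes, group means 14.7 to 17.5 CPM) and of monocytes and neutrophils (5 genes, 1.26 to 2.73 CPM) were at low levels in all groups.

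In the non-amyloid cohort, 0 of 35 members were called between Hom and WT mice, against 0.0329% of all genes, and 0 were at an unadjusted p under 0.05, against 4.49% of all genes (edgeR quasi-likelihood test). DESeq2 and limma-voom also called 0 (0.0518% and 0.0329% of all genes), with 1 member lower and 0 higher at an unadjusted p under 0.05 by DESeq2, and 1 lower and 2 higher by limma-voom. The estimates ran from -0.118 for *Lamp2* to 0.173 for *Man2b1*, with a median of 0.0139. *Cd68* was at 6.004 to 8.71 CPM in WT and 5.90 to 8.56 CPM in Hom mice, and *Grn* at 32.4 to 52.8 and 36.4 to 53.2 CPM, ranges that nearly coincide.

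The interaction, that is the Hom against WT difference in the amyloid cohort minus that in the non-amyloid cohort, was called for 0 of 35 members and for 0 of 21253 genes by edgeR. At an unadjusted p under 0.05, 13 members were lower and 0 higher, against 5.54% and 4.76% of all genes. Its median was -0.165 on the log2 scale, against 0.0083 over all genes. The lowest p belonged to *Laptm5* with -0.91 ± 0.18 (edgeR adjusted p = 0.0719), then *Grn* with -0.67 ± 0.15 and *Hexa* with -0.52 ± 0.13 (both 0.111 by the edgeR adjusted p). DESeq2 called *Laptm5* and *Grn* (0.127% of all genes), edgeR with sex as a covariate called *Laptm5* (0.0565%), and limma-voom called 0. On leaving out 1 library, edgeR called *Laptm5* in 6 of 40 fits, among them that without amyloid Hom replicate 3. Over the 40 fits 0 to 2 members and 0 to 22 genes were called. For the 6 genes called between cohorts in WT mice alone, the interaction was -0.54 ± 0.18 for *Naglu*, -0.27 ± 0.11 for *Glb1*, -0.18 ± 0.07 for *Fuca1*, -0.16 ± 0.08 for *Gm2a*, -0.15 ± 0.08 for *Idua* and -0.09 ± 0.07 for *Galc*, none of which passed.

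The sexes were compared within the amyloid cohort. Between amyloid females and males, with genotype in the model, 0 of 35 members were called by edgeR, against 0.240% of all genes, while 11 were higher in females at an unadjusted p under 0.05, against 6% of all genes, and 0 were lower, against 1.92%. The highest were *Cd68* at 0.61 ± 0.14 (edgeR adjusted p = 0.0704), *Gusb* at 0.43 ± 0.10 (0.0633 by the same adjusted p) and *Npc2* at 0.33 ± 0.08 (adjusted p = 0.0902 by edgeR). DESeq2 called *Gusb*, *Npc2* and *Cd68* (1.18% of all genes), and limma-voom called *Gusb*, *Cd68* and *Laptm5* (0.532%). Without amyloid Hom replicate 3 edgeR called 0 (0.118%), and without amyloid Hom replicate 19 it called *Gusb* alone (0.503%). Microglial marker sums were likewise 1263 ± 259 CPM in amyloid WT females, 881 ± 142 in WT males, 796 ± 131 in Hom females and 631 ± 83.5 in Hom males (mean ± SD, n = 5 each), and their part in the sex values was not tested.

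In one fit of genotype and sex over the amyloid mice, Hom females compared to WT females had lower *Laptm5* (-0.94 ± 0.18, edgeR adjusted p = 0.0418) and lower *Grn* (-0.76 ± 0.15, edgeR adjusted p = 0.0433), which are 2 of 35 members against 0.169% of all genes called lower. *Grn* was at 80.7, 125.8 and 139.4 CPM (lowest, median and highest) in the 5 WT females and 53.9, 65.1 and 81.0 CPM in the 5 Hom females. The ranges overlapped by 1 mouse of each group. *Laptm5* was at 60.6, 86.8 and 103.6 CPM in WT females and 30.7, 41.5 and 52.0 CPM in Hom females, with no overlap. Both calls turned on single mice. They were lost on leaving out amyloid WT replicate 5, 12 or 32 or amyloid Hom replicate 16, 19 or 33, with adjusted p up to 0.167 for *Grn* and 0.145 for *Laptm5* by the same edgeR test. Without amyloid WT replicate 8, the WT female with the lowest *Grn* and *Laptm5*, 13 members were called (5.37% of all genes), and without amyloid Hom replicate 3 there were 7 (1.18%). DESeq2 called 8 in females (1.83%) and limma-voom 0 (0.0706%). Hom males compared to WT males gave 0 calls by edgeR, against 0.00471% of all genes, and 7 members lower at an unadjusted p under 0.05, against 2.15%, while DESeq2 called *Cd68* alone (0.122%) and limma-voom 0 (0.0141%). *Cd68* had estimates of -0.83 ± 0.20 in females and -0.85 ± 0.21 in males, with neither called, and *Grn* was at -0.30 ± 0.15 in males. The test of the difference itself, the interaction of genotype and sex, called 0 members and 0 genes by edgeR, with *Grn* (-0.46 ± 0.21) and *Lipa* (-0.37 ± 0.17) at an unadjusted p under 0.05, against 2.70% of all genes in that direction.

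The level of a member in a mouse could be set against the microglial marker sum of the same mouse, within each group of 10, so that differences between groups play no part. Of 140 relations (35 members in 4 groups), 18 passed by a permutation test of Pearson's r with Benjamini-Hochberg adjustment, and all 18 were positive. The relation was not computed for all genes. The counts therefore have no share of all genes beside them and cannot be read as particular to the members. By Spearman's rho *Ppt1* passed in non-amyloid WT mice with a negative relation (rho = -0.85, adjusted p = 0.028, permutation test). Of the 18, 11 were in amyloid WT, 7 in amyloid Hom and 0 in either non-amyloid group. In amyloid WT mice *Npc2* had r = 0.98 and Spearman's rho = 0.99 (both adjusted p = 0.0014, permutation test). *Cd68* had r = 0.96 and rho = 0.95 (adjusted p = 0.0021 and 0.0049, permutation test), and *Laptm5* r = 0.96 and rho = 0.95 (adjusted p = 0.0024 and 0.0049, permutation test). The others were *Gusb*, *Hexa*, *Man2b1*, *Fuca1*, *Tpp1*, *Lgmn*, *Grn* and *Lamp1*. In amyloid Hom mice *Cd68* had r = 0.94 and rho = 0.94 (adjusted p = 0.0025 and 0.0066, permutation test), and *Npc2*, *Lgmn*, *Gusb*, *Man2b1*, *Laptm5* and *Grn* followed with r from 0.92 to 0.82. All 11 relations in amyloid WT mice also passed by rho, and 4 of the 7 in amyloid Hom mice. Those of *Lgmn*, *Npc2* and *Grn* did not, with adjusted p of 0.068, 0.077 and 0.1 for rho (permutation test). *Psap*, by contrast, had r = 0.42 in amyloid WT and -0.03 in amyloid Hom mice.

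The median r over the 35 members was 0.22 in non-amyloid WT, 0.24 in non-amyloid Hom, 0.55 in amyloid WT and 0.32 in amyloid Hom mice. The marker sum itself covered a range of 361.1 to 517.5 CPM in non-amyloid WT and 393.1 to 470.5 CPM in non-amyloid Hom mice, against 705.9 to 1535 and 548.0 to 935.5 CPM in the amyloid groups. Whether the relation differed between groups was not tested. Leaving out the 2 mice farthest from the median marker level, 6 relations passed in amyloid WT and 1, that of *Cd68*, in amyloid Hom mice, where r was 0.95. The other 6 relations of the Hom group no longer passed without those 2 mice, with r of 0.65 (*Grn*) to 0.82 (*Npc2*). Fewer mice alone also make passing harder, and no other pair of mice was left out, so the 2 cannot be told apart. Since the mean marker sum was higher in females than in males of each group, the mean of each sex was also removed, an alternative chosen after the data had been seen. Then 5 positive relations passed in amyloid WT (*Gusb*, *Npc2*, *Lgmn*, *Cd68* and *Laptm5*) and 2 in amyloid Hom mice (*Grn* and *Cd68*), and 1 negative relation passed, that of *Ppt1* in non-amyloid WT mice (r = -0.89, adjusted p = 0.03, permutation test). With 12 genes of plaque-associated microglia, *Apoe* and *Cst7* among them, in place of the 16 markers, 11 positive relations passed in non-amyloid WT, 9 in non-amyloid Hom, 13 in amyloid WT and 3 in amyloid Hom mice. Negative relations passed for 7 members in non-amyloid WT (*Ids*, *Arsb*, *Galc*, *Lipa*, *Npc1*, *Lamp2* and *Scarb2*) and for 3 of these, *Arsb*, *Lamp2* and *Scarb2*, in non-amyloid Hom mice, but for 0 in the amyloid groups, so that which groups held relations depended on the marker list. The plaque-associated sum adds CPM, so its most abundant genes weigh most. Its mean was 757.3 CPM in non-amyloid WT and 1411 CPM in amyloid WT mice. The median log2 fold change of the list between these groups was 2.77, with a range of 0.403 to 8.9. Which genes of the list carried the relations was not tested.

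**Figure D5:**
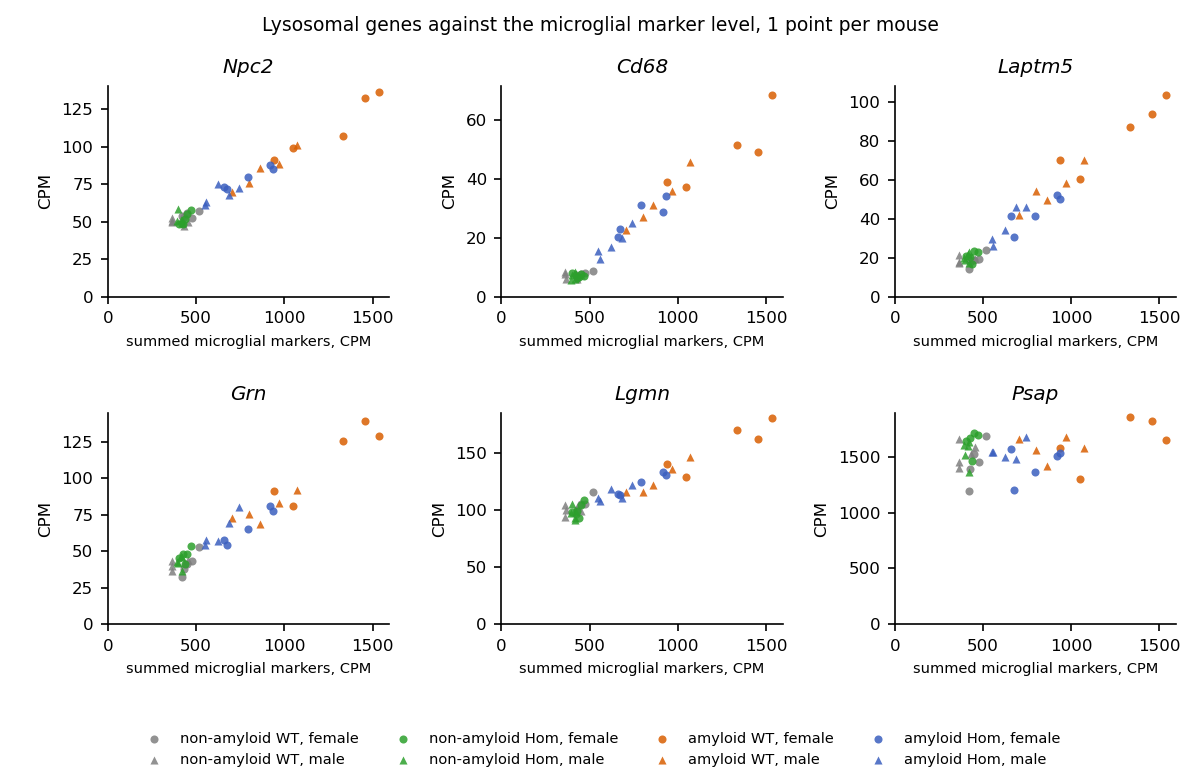
Level of 6 members in each mouse, in CPM, against the summed CPM of 16 microglial markers in the same mouse, coloured by group. Within the amyloid groups *Npc2*, *Cd68*, *Laptm5*, *Grn* and *Lgmn* rise with the marker sum, while *Psap* has r = 0.42 in amyloid WT and r = -0.03 in amyloid Hom mice.

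The promoter sequences can be set beside the expression values, as a description. Of the 9 genes with CACGTG in the window, 3 were called higher between cohorts in WT mice (*Naglu*, *Glb1* and *Lgmn*), and of the 22 matched genes without it, 13 were. In Hom mice these counts were 1 (*Lgmn*, whose match lay at its inner start alone) and 9. Median log2 fold changes were 0.179 with and 0.302 without the core between cohorts in WT mice, and -0.18 with and -0.161 without it between amyloid Hom and WT mice. *Mcoln1* and *Cln3*, with the longer forms, were not called in any comparison. The absence of the letters from this window says nothing of sites elsewhere.

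Further lysosomal genes were read from lists outside the 35, whose counts stand beside the 6.62% of all genes called higher between cohorts in WT mice and the 5.71% in Hom mice. Of 11 cathepsins, the lysosomal proteases, 8 rose between cohorts in WT mice and 7 in Hom mice, among them *Ctss* by 1.97 ± 0.14, *Ctsd* by 1.90 ± 0.13 and *Ctsz* by 1.86 ± 0.13 on the log2 scale in WT mice. In amyloid Hom compared to WT mice 0 of 11 were called, with 8 lower at an unadjusted p under 0.05 (5.77% of all genes) and a median of -0.383. *Ctsd* was at -0.77 ± 0.16 and *Ctsz* at -0.75 ± 0.16 (both adjusted p = 0.0554, edgeR). Of 18 other hydrolases, 9 rose in WT and 6 in Hom mice between cohorts, and between amyloid genotypes 0 were called with 9 lower at an unadjusted p under 0.05.

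Of 19 subunits and partners of the V-ATPase, the proton pump, 2 rose between cohorts in WT mice. They were *Atp6v0d2* (5.32 ± 0.48 on the log2 scale) and *Tcirg1* (0.73 ± 0.13), both subunits known from osteoclasts and macrophages, and in Hom mice *Atp6v0d2* was called (5.87 ± 0.59) and *Tcirg1* was not (0.32 ± 0.13). The interaction of *Tcirg1* was -0.41 ± 0.18 and was not called. The median of the 19 was 0.0185 in WT and 0.0177 in Hom mice. Between Hom and WT mice the 19 estimates ran from -1.56 to 0.0748 in the amyloid cohort and from -2.11 to 0.15 in the non-amyloid cohort. The larger cohort estimate of *Atp6v0d2* in Hom mice thus does not by itself show a higher level in amyloid Hom than in amyloid WT mice. Of 16 other membrane proteins, *Cd63*, a tetraspanin, rose in both genotypes (0.87 ± 0.09 in WT and 0.48 ± 0.09 in Hom mice) and *Tpcn2*, a cation channel, was called in WT mice (0.58 ± 0.10) and not in Hom mice (0.13 ± 0.10). The interaction of *Tpcn2*, at -0.44 ± 0.14, was not called (edgeR adjusted p = 0.239). Of 9 genes for sorting to the lysosome and 12 genes of the TFEB family and nutrient sensing, 0 were called by edgeR in either comparison of cohorts or between amyloid genotypes. At an unadjusted p under 0.05, 2 sorting genes were higher between cohorts in WT mice (13.2% of all genes) and 3 lower in Hom mice (7.90%), 1 nutrient-sensing gene was higher and 1 lower in each genotype, and 0 of both lists passed between amyloid genotypes.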

How the data were processed

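Cortical mRNA of 40 mice was sequenced from poly-A selected libraries, and the deposited values are raw counts per gene, made by the authors with featureCounts on mm10, with no normalization. The study's methods name MAP-RSeq with TopHat and Bowtie, whereas the submitters' processing notes name STAR 2.5.2b, featureCounts 1.5.1 and edgeR, so the aligner is not settled here, and the strand setting of counting is not given in the sources used here. The methods leave out 1 amyloid Hom female for a low share of reads on genes and for its strand check. The labels do not name it, so all 10 libraries were kept; of the 5 amyloid Hom females, replicate 19 had the lowest depth and the highest antisense share. Groups came from the labels of cohort, genotype and sex.

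Genes with 10 or more counts in at least 4 libraries were tested with edgeR 4.0.16 in R 4.3.3 (glmQLFit and glmQLFTest, TMM factors over 40 libraries, Benjamini-Hochberg over 21253 genes). A gene was called at an adjusted p under 0.05 where its log2 fold change also exceeded 0.25 in size. Hom and WT mice were compared within each cohort over its 20 libraries. The cohorts and the interaction came from one fit of 4 groups, and sex was tested in the amyloid cohort. CPM values were computed from the counts and the TMM-adjusted library size. Intervals are the estimate ± 1.96 SE. Members and lists were chosen with earlier results of these data known, so they are described by counts and medians beside all genes, with no test of a list. Every member may be named, and the values of single groups are given for members called in a comparison, those at either end of the genotype and WT cohort estimates, and those with the lowest p of the interaction. Of the further lists, genes called or lowest in p are named. Relations to the microglial marker sum used log2(CPM + 0.5), 100000 permutations and adjustment over 140 relations. Whether mice were from separate litters is not labelled, so the p-values measure the spread between these mice.

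Alternatives were DESeq2 1.42.0, voom of limma 3.58.1 with sample weights, other normalizations and filters, sex as a covariate, one fit of all libraries, and leaving out each library. Depth was 41646271 to 105903846 counts per library, at which all members had counts well above the filter. Counts were simulated for the amyloid genotype comparison over 21049 genes. On these, edgeR called 81 of 99 genes changed by 1 and 59 of 100 changed by 0.5 on the log2 scale. The spread of the simulated counts was estimated over all 4 groups together, and not from the amyloid mice alone. Whether these shares hold at the spread between the real amyloid mice was not tested, so they cannot be carried over to that comparison. In the real comparison edgeR called 0 of 35 members, whose estimates ran from -0.839 to 0.13.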

Additional observations from a re-analysis of the deposited data

Results flagged for a closer look

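In 9 of 140 groups of 10 mice (35 members in 4 groups) the mouse at one end stood apart by Dixon's test at the 95% level, and chance alone gives about 1 in 20 groups. Of these, 5 were low in 1 mouse. *Galns* was at 5.043 CPM in non-amyloid WT replicate 15, with the next mouse at 6.183 CPM, and at 4.479 CPM in amyloid Hom replicate 39, with the next at 6.281 CPM. *Tpp1* was at 70.55 CPM in amyloid Hom replicate 19, the shallow library with many antisense counts, with the next at 91.31 CPM. *Mcoln1* was at 41.06 CPM in non-amyloid Hom replicate 4 (next 47.22 CPM) and *Lamp1* at 306.7 CPM in amyloid Hom replicate 10 (next 338.1 CPM). The other 4 were high in 1 mouse. *Lgmn* was at 115.8 CPM in non-amyloid WT replicate 1 (next 105.2 CPM), *Npc1* at 91.39 CPM in non-amyloid WT replicate 7 (next 80.17 CPM), *Gm2a* at 65.42 CPM in non-amyloid Hom replicate 11 (next 58.22 CPM) and *Ppt1* at 180.8 CPM in non-amyloid Hom replicate 4 (next 156.1 CPM). No member called between amyloid and non-amyloid WT mice lost that call by leaving out non-amyloid WT replicate 1 or 7 apart from *Idua*.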

How the results depend on the processing

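No paired analysis was possible because the labels do not name litters, and the replicate numbers only number the libraries. Between amyloid Hom and WT mice, members called went from 0 to 8 with DESeq2, 7 with sex as a covariate, 7 with sex as a covariate and without library 19, 10 in one fit of 40 libraries, and 1 with upper-quartile normalization, library size alone or filterByExpr, and to 0 to 7 on leaving out 1 library; genes called went from 16 to 294, 251, 204, 612, 22, 20 and 20, 25 with limma-voom, 8 without a filter, and 6 to 204 on leaving out 1 library. Members lower at an unadjusted p under 0.05 numbered 13 to 19 and the median was -0.178 to -0.115 in those leave-outs, and the median was -0.0957 with limma-voom against -0.155. Interaction calls went to 2 with DESeq2, 1 with sex as a covariate and 0 to 2 on leaving out 1 library (11 to 17 lower at unadjusted p). Sex calls went to 3 with DESeq2 and with limma-voom, and 0 to 3. Within females calls went from 2 to 8 (DESeq2), 0 (limma-voom), 3 (upper-quartile and library size), and 0 to 13 on leaving out 1 female; within males DESeq2 gave 1. The alternatives within each sex were chosen after the data had been seen. Members lower at an unadjusted p under 0.05 became 1 between non-amyloid Hom and WT mice with DESeq2, limma-voom and library size alone (0 to 1 on leaving out 1 library), and 1 between cohorts in Hom mice with DESeq2, limma-voom, no filter and the 20 libraries alone (0 to 2). For genotype by sex they became 0 with limma-voom, 1 with upper-quartile normalization and 0 to 6 on leaving out 1 library. Cohort calls were 15 to 18 in WT and 9 to 11 in Hom mice on leaving out 1 library. Positive relations to the plaque-associated list numbered 11 and 9 in non-amyloid WT and Hom mice and 3 in amyloid Hom mice; without the 2 farthest mice they were 6 and 1, and with sex means removed 5 and 2, in amyloid WT and Hom mice. The longer motifs were found in 2 members and 1. Estimates near 0 changed sign between WT cohorts: *Arsb* -0.0158, -0.0149 and -0.0106 and *Ppt1* -0.00745, -0.0064 and -0.00239 with DESeq2, no filter and filterByExpr, and -0.0336 to 0.0344 and -0.0293 to 0.0447 on leaving out 1 library. So did *Smpd1* (-0.00326 to 0.0769) and, between amyloid genotypes, *Ppt1* (-0.00495 to 0.0874), each without 1 library. The causes of these changes were not tested.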
